A study of Brassica rapa subsp. chinensis with 6 samples.

Results

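Genes annotated as glycosyl, methyl or acyl transferases were compared between the chlorotic pakchoi mutant 564Y and its wild type 564. The members were the genes whose sequence match text names a UDP-dependent glucosyl- or glycosyltransferase, a UGT, a methyltransferase or an acyltransferase, leaving out texts on xyloglucan, cellulose, galacturonosyl transfer, jasmonate, auxin, wax and histones. The rule found 46 of the 2958 genes in the table analysed, with 26 glycosyltransferases, 14 methyltransferases and 6 acyltransferases, and 0 genes were removed by the words to leave out. The names come from the best sequence match, mostly an Arabidopsis protein, and were not tested in pakchoi.

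Plant glycosyltransferases of the UGT family move a sugar from a UDP-sugar onto hormones, flavonoids, defence compounds and their precursors, which usually makes them more soluble and less active. Methyltransferases take the methyl group of S-adenosylmethionine and serve lignin and volatile synthesis, choline lipids, quinones and DNA marking. The acyltransferases named here include enzymes that build very long fatty acids. Others join fatty acids to glycerol, a step toward the cutin and suberin polymers of the plant surface.

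Pakchoi (*Brassica rapa* subsp. *chinensis*) plants were sampled above ground when trifoliate. Their RNA gave 3 libraries of strain 564Y (genotype mutant) and 3 of strain 564 (genotype wild type). The labels call the replicates biological and independent, do not name the mutated gene and give no treatment, and their extraction text speaks of several time points where the stage label gives 1. The table holds only genes that the authors called, so every member had passed an adjusted p of 0.001 and an absolute log2 ratio of 1, and the share of all transferase genes that differ was not analysed here. Normalised reads are reads divided by the authors' size factor of each library, which was recovered from the base means. Base means are the group means of normalised reads, and folds are ratios of base means. The table gives group means alone, and exactly 1 set of whole library counts fitted the deposited means of 41 members in both groups. These libraries are called A, B and C by descending size factor and are not tied to the replicate numbers of the labels. The 5 other members are abundant in 564Y and are given by the authors' means there. In bulk tissue, fewer cells of a type and less RNA per cell cannot be told apart.

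Of the 46 members, 23 were higher and 23 were lower in 564Y. Of all genes in the authors' list, 59.7% were higher and 40.3% were lower. No test of the members' share against the table was run. Of the glycosyltransferases 8 were higher and 18 lower, of the methyltransferases 9 were higher and 5 lower, and of the acyltransferases 6 were higher and 0 lower. The share of higher genes was 30.8% of the glycosyltransferases, 64.3% of the methyltransferases, which is near that of the table, and 100% of the acyltransferases, which are 6 genes. The difference between the classes was not tested. An absolute log2 ratio of at least 2 was reached by 21 members (45.7%), against 37.8% of the table, and these were 9 glycosyltransferases, 6 methyltransferases and 6 acyltransferases. With reads in both groups, the authors' deposited table has a median log2 ratio of 2.26 over 22 higher members and -1.72 over 22 lower ones, beside 1.70 over the 1681 higher and -1.54 over the 1129 lower genes of the whole table. The lower members had a median base mean of 101.3 in 564Y and 410.1 in 564, and the higher members 159 in 564Y and 28.0 in 564. In 41 of 41 recovered members the libraries of the groups did not overlap, as in 100% of the recovered genes of the table, which had been selected for their difference.

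**Figure D1:**
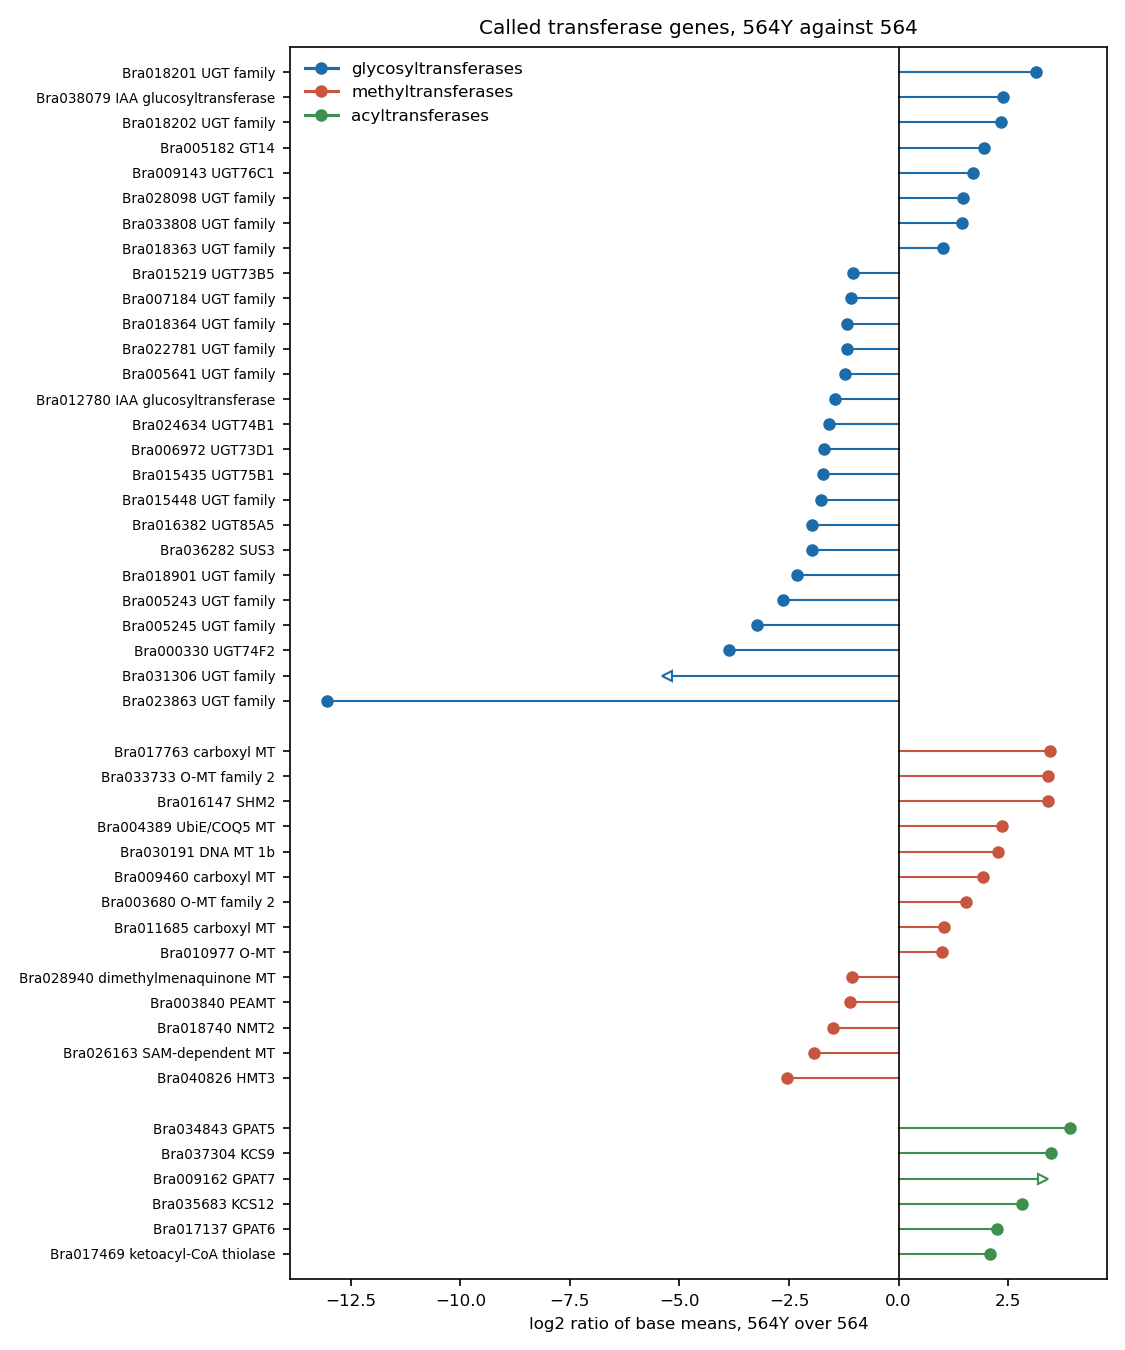
Log2 ratio of the base means, 564Y over 564, for each of the 46 members, sorted within the 3 classes. Filled circles are the authors' ratios, and open triangles mark the 2 members with 0 reads in a group, drawn at their bound. All 6 acyltransferases lie to the right of 0, while 18 of 26 glycosyltransferases lie to the left, with Bra023863 at -13.05.

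Among the glycosyltransferases, 2 genes were close to absent from 564Y. Bra023863, a UDP-glucosyl transferase family gene, had 0, 0.962 and 0 normalised reads in 564Y libraries A, B and C, against 2724, 2655 and 2781 in those of 564. The 564Y group as a whole held 1 read of this gene, while its 564 libraries were nearly equal to each other. The level was 8482-fold lower in 564Y, with an exact 95% interval of 1515 to 333547 that covers counting error only. The fold rests on the single read in library B, without which 564Y holds 0 reads of this gene. No gene of the table with reads in both groups had a more negative ratio, and its adjusted p is written as 0 in the authors' deposited table. Bra031306, of the same family name, had 0 reads in all 3 libraries of 564Y, against 29.4, 41.7 and 41.6 normalised reads in 564. Taking 3 reads over the 564Y group as the limit that 0 reads allow, it was at least 38.9-fold lower. Its gene model has 723 coding bases where the median of the glycosyltransferases is 1390.5.

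UGT74F2, which in Arabidopsis makes the glucose ester of the defence hormone salicylic acid, fell to 6.83% of its wild type level. Bra000330, the gene matched to it, had 44.2, 36.6 and 35.2 normalised reads in the 564Y libraries and 535, 575 and 587 in the 564 libraries. The highest 564Y library lay 12.1-fold below the lowest of 564. The means were 38.6 ± 4.85 in 564Y and 566 ± 26.9 in 564 (SD, n = 3 recovered libraries each), a 14.6-fold lower level. Its adjusted p in the authors' deposited table was 1.68e-109. On the recovered counts, edgeR's quasi-likelihood fit gave a log2 change of -3.87 (approximate SE 0.16).

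UGT74B1, which adds glucose to the thiohydroximate core of glucosinolates, was also lower. Bra024634 had 516, 513 and 460.1 normalised reads in 564Y and 1384, 1611 and 1512 in 564. The 564Y libraries lay close together, and each was far below the lowest 564 library. The fold was 3.03, with an adjusted p of 2.42e-50 in the authors' deposited table.

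Glucosyltransferases of other hormones went both ways. The 2 genes matched to the indole-3-acetate glucosyltransferase, an enzyme that conjugates the hormone auxin, share their best match and moved in opposite directions. Bra012780, the abundant copy, had 693, 828 and 718 normalised reads in 564Y and 2037, 1929 and 2106 in 564 and was 2.71-fold lower. Bra038079 had 40.3, 26.0 and 29.3 in 564Y and 4.05, 7.12 and 7.28 in 564 and was 5.18-fold higher, at a low level in both groups. The authors' deposited table gives an adjusted p of 1.83e-46 for Bra012780 and 3.78e-05 for Bra038079. UGT76C1, known in Arabidopsis for adding glucose to cytokinins, rose 3.23-fold, with 172, 145 and 161 normalised reads of Bra009143 in 564Y and 55.7, 53.9 and 38.5 in 564. UGT75B1 is annotated with activity on 4-aminobenzoate and abscisic acid. Its match Bra015435 fell 3.33-fold, with 561, 546 and 529 normalised reads in 564Y and 1664, 2049.9 and 1727 in 564, and has 717 coding bases.

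The other members named as single UGTs were lower as well. UGT73B5 (Bra015219), which has a role in pathogen responses of Arabidopsis, had 694, 704 and 692 normalised reads in 564Y and 1399.7, 1545 and 1376 in 564. The libraries of each group were within narrow ranges, and the fold of 2.07 is among the smallest of the class. UGT73D1 (Bra006972) was 3.25-fold and UGT85A5 (Bra016382) 3.90-fold lower in 564Y. These 2 were named for having a UGT name of their own, after their values were seen. Of the 11 glycosyltransferases that carry a name other than the family name, 3 were higher and 8 were lower.

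The remaining 15 glycosyltransferases carry only the family name, and 5 were higher and 10 lower. Bra018201 had 37.5, 30.8 and 31.3 normalised reads in 564Y and 2.02, 2.03 and 7.28 in 564, and Bra018202, next to it in identifier order, had 35.5, 45.2 and 48.8 in 564Y and 8.10, 8.14 and 9.36 in 564. Bra018201 rose 8.77-fold (counting interval 4.74 to 18.3), and Bra018202 rose 5.06-fold (interval 3.29 to 8.10). The size for Bra018201 depends on library C of 564, without which edgeR's log2 change was 3.95, against 3.10 with all libraries. The pair Bra005243 and Bra005245 fell together. The first had 10.6, 13.5 and 16.6 normalised reads in 564Y and 74.9, 89.5 and 89.5 in 564, and the second 2.88, 1.92 and 1.95 in 564Y and 23.3, 26.5 and 13.5 in 564. Another pair of neighbouring identifiers went opposite ways. Bra018363 rose 2.03-fold, with a mean of 1369 in 564Y and 673 in 564, while Bra018364, named after its values were seen, had 57.6, 70.2 and 46.9 in 564Y and 143, 106 and 146 in 564 and was 2.26-fold lower. Near-identical copies can share reads, and the sources used here do not state how such reads were assigned, so single members of these pairs are uncertain. The other 7 genes with library values that carry only the family name and have not been described had folds between 2.11 and 4.99, with 5 lower and 2 higher.

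**Figure D2:**
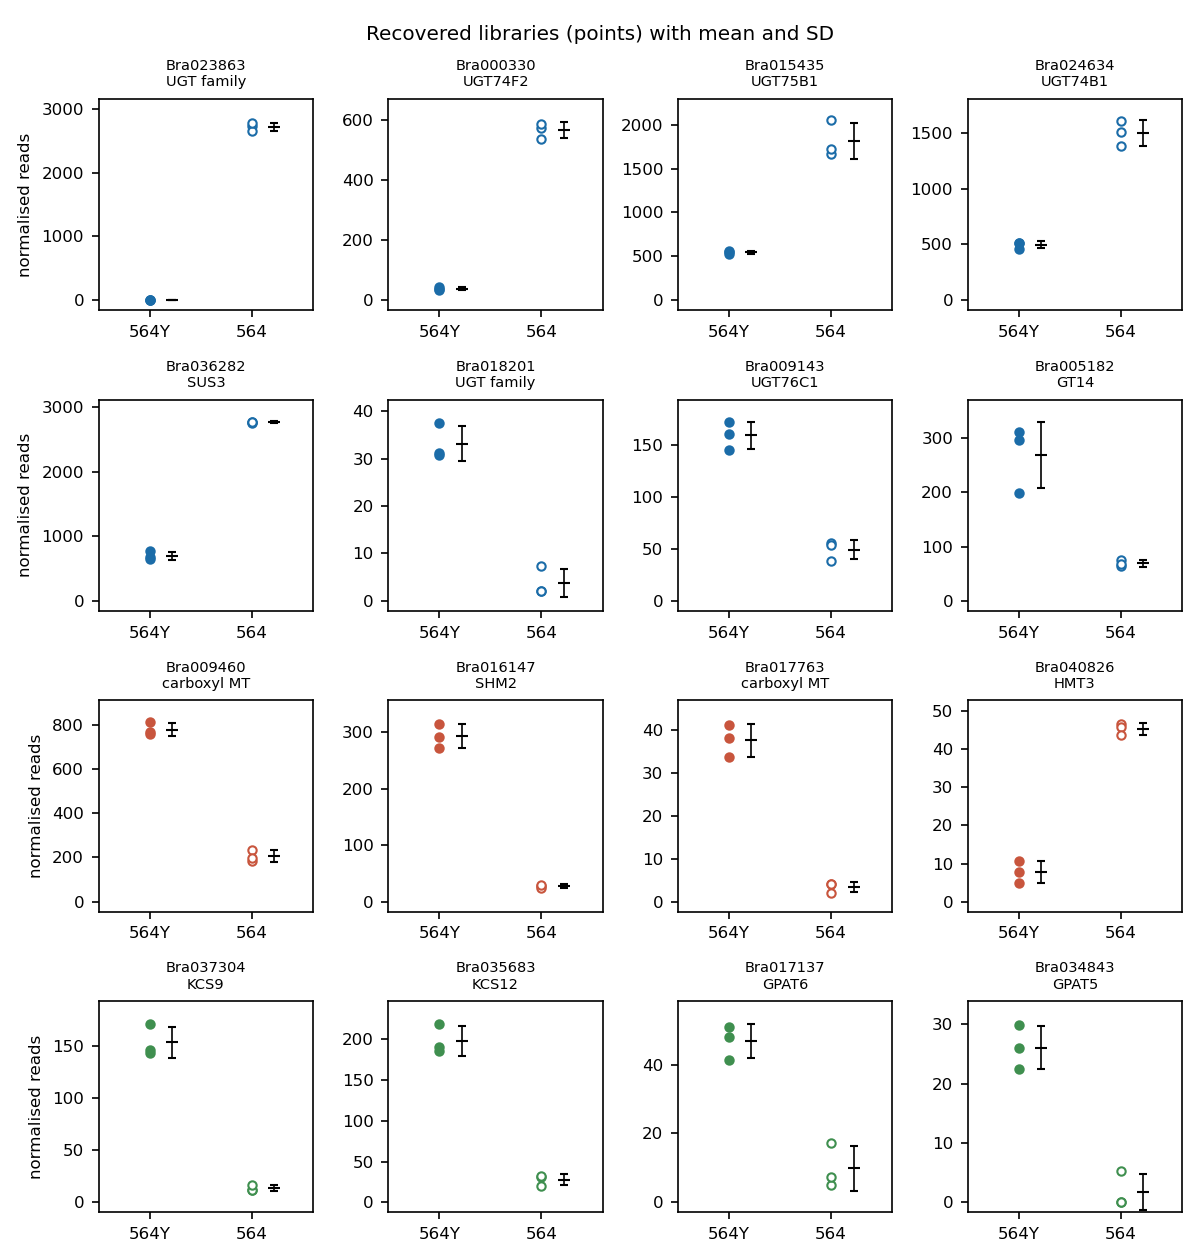
Normalised reads in the recovered libraries of 16 members, 564Y at the left of each panel and 564 at the right. Each point is 1 library, with the mean and SD (n = 3) as a black bar beside it, and each panel has its own scale. In each panel the groups are apart, and the spread within a group is widest relative to its mean where few reads were counted, as for GPAT5 in 564.

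Sucrose synthase and a family 14 glycosyltransferase entered the class through their annotation. SUS3 (Bra036282), which splits sucrose and so supplies UDP-glucose, had 675, 654 and 771 normalised reads in 564Y and 2759, 2775 and 2777 in 564. The 564 libraries were nearly equal, and the level in 564Y was 3.96-fold lower. Its adjusted p in the authors' deposited table was 3.94e-90. The glycosyltransferase family 14 gene Bra005182 had 312, 296 and 199 normalised reads in 564Y and 75.9, 64.1 and 67.6 in 564 and was 3.89-fold higher, with library C of 564Y the lowest of its group. Of the 2 genes listed for sugar donor supply, both were higher, as were 59.7% of the genes of the table. The UTP-glucose-1-phosphate uridylyltransferase family gene Bra005373, from the enzyme group that makes UDP-glucose, had means of 1155 in 564Y and 511 in 564. The UDP-glucose 4-epimerase gene Bra016757, which interconverts UDP-glucose and UDP-galactose, had 1342 in 564Y and 637 in 564.

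The most abundant methyltransferase genes moved in opposite directions. The UbiE/COQ5 family is named for enzymes that methylate the rings of quinones. Its member Bra004389 rose 5.10-fold, with a mean of 7596 normalised reads in 564Y and 1489 in 564. Its 564 libraries had 1516, 1472 and 1478. Per kilobase of coding length it was the most abundant member in 564Y, at 8141 normalised reads per kilobase, against 1595 in 564. Phosphoethanolamine N-methyltransferase makes the phosphocholine of membrane lipids. Bra003840, matched to it, fell 2.15-fold, with a mean of 5529.8 in 564Y and 11912 in 564. Per kilobase it was the most abundant member in 564, at 3636 normalised reads per kilobase in 564Y and 7832 in 564. A second gene of that reaction, NMT2 (Bra018740), had 151, 164 and 125 normalised reads in 564Y and 415, 389.6 and 426 in 564 and was 2.80-fold lower. In the authors' deposited table the adjusted p was 2.71e-26 for Bra004389, 3.31e-38 for Bra003840 and 5.03e-22 for NMT2.

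The 3 carboxyl methyltransferases all rose, as did 59.7% of all genes of the table, and the share of these 3 was not tested. Enzymes of this family form methyl esters of plant acids such as salicylic acid. Bra009460 had 767, 813 and 760.0 normalised reads in 564Y and 183, 236 and 198 in 564, a 3.79-fold rise. Its log2 change in edgeR's quasi-likelihood fit was 1.92 (approximate SE 0.12). The weakly expressed Bra017763 had 41.3, 33.7 and 38.1 in 564Y and 4.05, 2.03 and 4.16 in 564, which is 11.04-fold higher with a counting interval of 5.80 to 23.6. Bra011685 shares its best match with Bra017763 and rose 2.06-fold, named here after its values were seen. O-methyltransferases as a group include enzymes of lignin and flavonoid methylation. Genes with only that name also rose in 3 of 3 cases, against 59.7% of the table, and this share was not tested. The abundant one, Bra003680, had means of 1455 in 564Y and 499.7 in 564, 2.91-fold higher. Bra033733, which shares that best match, was 10.7-fold higher and Bra010977 2.004-fold higher, likewise named after their values were seen. The fold of Bra033733 rests on 5 reads over the 564 group and has a counting interval of 4.35 to 34.4.

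Among genes of one-carbon metabolism, which feeds the methyl donor, SHM2 (Bra016147) rose and HMT3 (Bra040826) fell. SHM2 is a serine hydroxymethyltransferase, which moves a one-carbon unit between serine and glycine and is no methyltransferase in the strict sense. It had 315, 292 and 273 normalised reads in 564Y and 28.3, 24.4 and 30.2 in 564, a 10.6-fold rise. HMT3, which methylates homocysteine to methionine, had 10.6, 4.81 and 7.81 in 564Y and 46.6, 45.8 and 43.7 in 564 and was 5.87-fold lower. The 564 libraries of HMT3 were nearly equal, while those of 564Y rest on few reads each. Both genes listed for methyl donor supply were lower, as were 40.3% of the genes of the table. S-adenosylmethionine synthase 2 (Bra021241), which makes the donor, had 54.8, 77.0 and 61.5 normalised reads in 564Y and 701, 622 and 590.0 in 564 (9.90-fold lower). S-adenosylhomocysteine hydrolase SAHH2 (Bra001921), which removes the product left after methyl transfer, had 775, 775 and 711 in 564Y and 3237, 3011 and 3082 in 564 (4.13-fold lower).

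DNA methyltransferase 1b (Bra030191), from the enzymes that keep DNA methylation through replication, was low in both groups. It had 23.1, 31.7 and 19.5 normalised reads in 564Y and 7.08, 4.07 and 4.16 in 564, a 4.85-fold rise with a counting interval of 2.76 to 9.08. Its adjusted p of 0.000561 in the authors' deposited table is the second largest among the members. The S-adenosylmethionine-dependent methyltransferase Bra026163 had 20.2, 14.4 and 20.5 normalised reads in 564Y and 73.9, 74.3 and 61.4 in 564 and was 3.80-fold lower. Bra028940, named for dimethylmenaquinone methyltransferase, had 126, 102 and 76.2 in 564Y and 173, 240.1 and 219.5 in 564. Here library A of 564Y came closest to the 564 libraries, and the fold of the means was 2.08.

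All 6 acyltransferases rose, and each passed an absolute log2 ratio of 2. Of the class, 3 are GPAT genes, and the other 3 carry the word acyltransferase through a wider activity term. GPAT5, GPAT6 and GPAT7 are glycerol-3-phosphate acyltransferases that in Arabidopsis supply suberin and cutin. GPAT6 (Bra017137) had 41.3, 51.0 and 47.9 normalised reads in 564Y and 5.06, 17.3 and 7.28 in 564, a 4.73-fold rise with a counting interval of 3.15 to 7.30. Library B of 564 was the highest of its group and still lay below the 564Y libraries, and without it edgeR's log2 change was 2.90, against 2.23 with all libraries. GPAT5 (Bra034843) had 25.9, 29.8 and 22.5 in 564Y and 0, 0 and 5.20 in 564, where all its reads came from library C. Its fold of 15.04 has a counting interval of 6.29 to 48.4 and rests on that library, without which 564 holds 0 reads of the gene. Without library A or B of 564, edgeR's log2 change was 3.28, against 3.84 with all libraries. GPAT7 (Bra009162) had 9.61, 8.66 and 11.7 in 564Y and 0 reads in all 3 libraries of 564, and with 3 reads over the 564 group as the limit it was at least 9.77-fold higher. Per kilobase of coding length GPAT6 reached 31.0, GPAT5 17.3 and GPAT7 6.68 normalised reads in 564Y, which places them among the weakly expressed members there.

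The 2 ketoacyl-CoA synthases, KCS9 and KCS12, condense acyl chains in the elongation of very long fatty acids. KCS9 (Bra037304) had 171, 146 and 144 normalised reads in 564Y and 12.1, 12.2 and 16.6 in 564. It rose 11.2-fold, with a log2 change of 3.48 (approximate SE 0.23) in edgeR's quasi-likelihood fit. KCS12 (Bra035683) had 190.2, 186 and 219 in 564Y and 20.2, 31.5 and 32.3 in 564 and rose 7.08-fold. The list for acyl donor supply held 7 further genes, 5 higher and 2 lower (71.4% higher, against 59.7% of the table). It matched 4 more ketoacyl-CoA synthases by their name, 3 higher and 1 lower, and 3 coumarate-CoA ligases, which the list of phenylpropanoid genes also holds. KCS20 (Bra033694) was the most abundant of these, with means of 1294 in 564Y and 551 in 564. The thiolase Bra017469, which works in fatty acid breakdown and carries acetyl-CoA C-acyltransferase as its annotated activity, rose 4.26-fold. Its mean was 1081 in 564Y and 254 in 564, where the libraries had 219.6, 287 and 255.

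**Figure D3:**
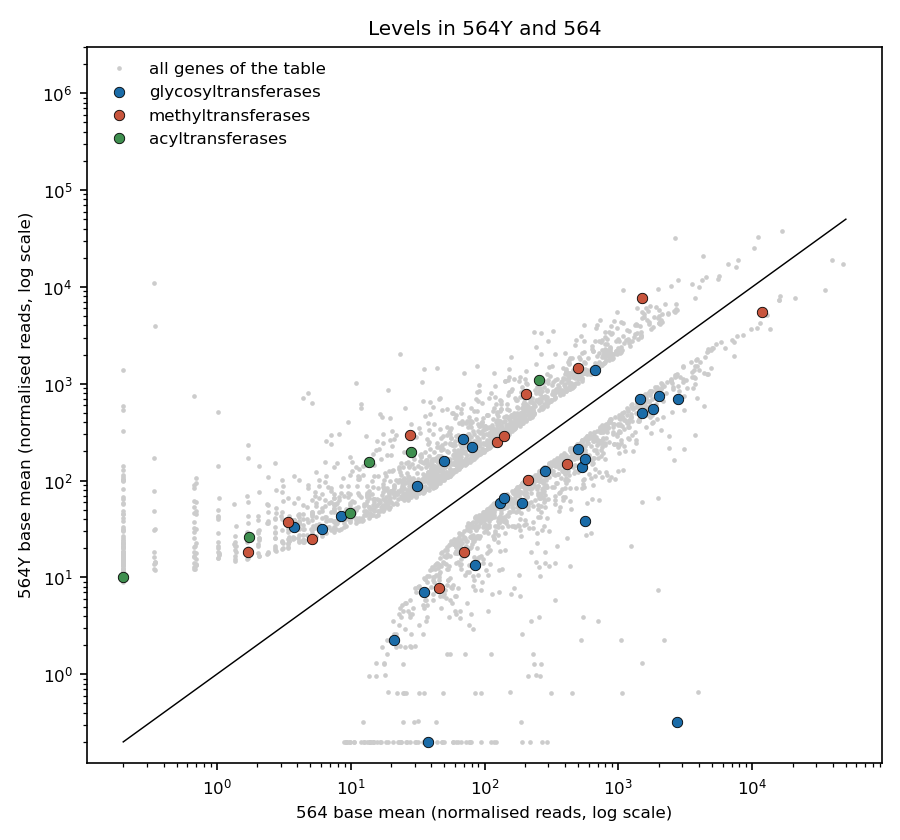
Base mean in 564Y (vertical) against 564 (horizontal) on log scales for the 2958 genes of the table in grey and the 46 members in colour. Genes with 0 reads in a group are drawn at 0.2, and the line marks equal levels. The band around the line is empty because the table holds called genes, and Bra023863 lies at the lower right.

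The lower and the higher glycosyltransferases differed in level, as did the lower and higher genes of the whole table. In 564, the lower glycosyltransferases had a median base mean of 517.5 and the higher ones 40.5. In 564Y the medians were 95.7 for the lower genes and 123.5 for the higher ones. Over the whole table the medians in 564 were 231.4 for lower genes and 48.7 for higher ones, and in 564Y 68.7 and 170.8. Genes selected for their difference tend to this order, so it is no trait of the class. Summed over the 26 genes, the base means of glycosyltransferases came to 6288 in 564Y and 16285 in 564. The largest parts in 564 were SUS3, with 700 in 564Y and 2770 in 564, and Bra023863, with 0.321 in 564Y and 2720 in 564. The 14 methyltransferases summed to 16549 in 564Y and 15145 in 564, and the 6 acyltransferases to 1516 in 564Y and 307.1 in 564. Most of the acyltransferase sums came from the thiolase Bra017469, with 1081 in 564Y and 254 in 564. Most of the methyltransferase sums came from 2 genes that moved in opposite directions. These were Bra004389, with 7596 in 564Y and 1489 in 564, and Bra003840, with 5530 in 564Y and 11912 in 564. Over the whole table the sums were 1.62e+06 in 564Y and 1.38e+06 in 564. Replicates were of similar spread in both strains. Among 24 recovered members with a base mean of at least 20 in both groups, the median coefficient of variation was 9.37% in 564Y and 11.03% in 564, beside 11.035% in 564Y and 11.8% in 564 over 1762 genes of the table. Among these, the widest spread in 564 was that of the family-named Bra028098, with 108, 82.7 and 72.3 normalised reads in 564Y and 49.6, 32.6 and 12.5 in 564. Its adjusted p of 0.000594 in the authors' deposited table is the largest among the members, and it was named after its values were seen.

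Genes of phenylpropanoid and flavonoid synthesis, a source of substrates for many UGTs, were mostly lower. Whether the members found here use these substrates was not tested. Of 14 genes matched to phenylpropanoid and flavonoid synthesis, 3 were higher and 11 lower (78.6% lower, against 40.3% of the table). Flavonoid 3'-hydroxylase (Bra009312), which adds a hydroxyl group to the flavonoid ring, had 110.5, 149 and 128 normalised reads in 564Y and 1013, 1114 and 1132 in 564. Flavonol synthase FLS3 (Bra038648), named for the last step to flavonols, went the other way, with 34.6, 24.1 and 35.2 in 564Y and 8.10, 1.02 and 4.16 in 564. Both were picked after their values were seen. The list holds 3 genes named for 4-coumarate-CoA ligase, which activates phenolic acids. Of these Bra012232 and Bra025823 were higher, while Bra016466 had a mean of 4.19 in 564Y and 60.8 in 564 and was 14.5-fold lower. Genes for the removal of sugars gave 7 higher and 4 lower members, and their 63.6% higher is near the 59.7% of the table. The words matched 6 glycosyl hydrolases of family 17, which act on glucans and were all higher, while the 5 genes of family 1, which holds the beta-glucosidases, had 1 higher and 4 lower. BGLU15 (Bra004836), picked likewise, fell, with 67.2, 76.0 and 86.9 normalised reads in 564Y and 290.5, 235 and 298 in 564.

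The list of methyl and acyl ester removal had 10 higher and 2 lower genes (83.3% higher, against 59.7% of the table). It held 5 invertase or pectin methylesterase inhibitors, all higher, which are no esterases, and 5 genes named serine carboxypeptidase, 4 higher and 1 lower (80% higher). Serine carboxypeptidase-like proteins include acyltransferases, so the share of the list is not that of esterases. The probable pectinesterase and pectinesterase inhibitor 47 (Bra009406) had means of 684 in 564Y and 171 in 564 and was 4.01-fold higher. MES17 (Bra029875), also picked, is an esterase of methylated auxin and had 8.64, 4.81 and 9.77 normalised reads in 564Y and 32.4, 32.6 and 26.0 in 564 and was 3.92-fold lower. Outside the rule, 75 further texts contain the word transferase, 32 higher and 43 lower (42.7% higher, against 59.7% of the table), among them glutathione, amino and sulfo transferases. Of these, 9 are named only as a transferase family protein, and 8 were higher and 1 lower (88.9% higher). This group was set apart after its values were seen.

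**Figure D4:**
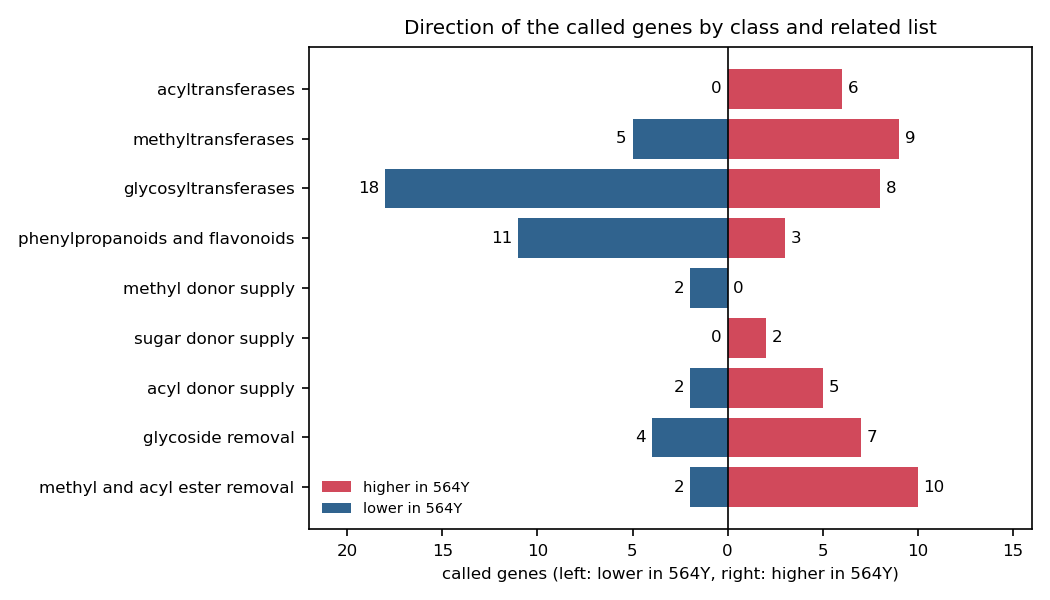
Number of called genes higher (right of 0) and lower (left of 0) in 564Y for the 3 classes and 6 related lists. Glycosyltransferases and phenylpropanoid genes fall mostly to the left, and acyltransferases lie wholly to the right.

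Markers of organs were matched because a library can hold different shares of organs. For the root 3 genes were matched (2 higher, 1 lower), for the flower 5 (3 higher, 2 lower), for seeds 2 (both higher) and for the leaf 2 (both lower). Of all genes of the table, 59.7% were higher and 40.3% were lower. RHD2 (Bra029194), of root hairs, had a mean of 56.7 normalised reads in 564Y and 7.83 in 564. Of the 3 MADS-box genes in the flower list, the AGL9 homolog Bra010955 had 25.7 in 564Y and 0.675 in 564, while the more abundant FUL-d (Bra035952) was lower, with 103 in 564Y and 207 in 564. The root gene PERK13 (Bra016218) had 0 reads in 564Y and a mean of 23.9 in 564. MLP34 (Bra003939), also of the root list, had 31.3 in 564Y and 0.347 in 564. The third MADS-box gene, the AGL8 homolog Bra012997, had 14.2 in 564Y and 0 reads in 564. Over each list the summed base mean was 88.0 in 564Y and 32.0 in 564 for the root, 1168 in 564Y and 1965 in 564 for the flower, 73.1 in 564Y and 18.4 in 564 for seeds, and 703 in 564Y and 1836 in 564 for the leaf. The flower list also matched stress enhanced protein 2 and phospholipase C 7 (Bra032722, 222 in 564Y and 45.7 in 564) by letters. Without stress enhanced protein 2 the flower sum was 365 in 564Y and 253 in 564, the other direction, and for the 3 MADS-box genes alone it was 143 in 564Y and 207 in 564. The leaf list matched PSAG of photosystem I, with 603 in 564Y and 1589 in 564. Its other gene, the receptor kinase CES101 (Bra001903), was matched only by the letters RBCS and is no leaf marker. It had 100 in 564Y and 247 in 564. The part of organ shares in the transferase results was not tested.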

How the data were processed

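RNA from 3 libraries of 564Y and 3 of 564 was compared. The deposited table holds 2958 genes, all with an adjusted p under 0.001 and log2 ratios of size 1 or more. The submitters' processing notes list DESeq 1.10.1, TopHat2 2.0.12 and Bowtie2 2.2.3 without saying what each did. No genome build is named in the sources used here. Per the file headers, the authors' columns give a mean read count signal, a base mean, log2 ratios, p-values and adjusted p-values, and a length. The base mean was taken as the mean of the reads after division by size factors. The length was taken as coding length, since all 2958 lengths are multiples of 3. The authors put 0.001 in place of a base mean of 0, so ratios against 0 reads are replaced by bounds from 3 reads over the group.

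Whole library counts were recovered from the deposited mean counts and base means as the only set of whole numbers that fits both. After multiplying by 3, 100% of the mean counts were whole within 0.001 reads, and 2619 genes were recovered in both groups. The recovery was checked on simulated data. On these counts edgeR 4.0.16 with the authors' size factors called 2619 of 2619 genes at an adjusted p of 0.05 and DESeq2 1.42.0 called 2617, but all are genes already called, so these fits give errors and not independent evidence. The authors' size factors are not among the columns and were recovered from the base means together with the counts. As recovered they lie between 0.961 and 1.04. The mean counts of the table's genes are part of each library, so library depth is unknown. The quasi-likelihood fit of edgeR gives no standard error, so each SE is the absolute log2 change over the square root of its F statistic. Such SEs are approximate and can be too small where a group holds few reads. Intervals are exact at 95% and cover counting error only. Alternatives were other normalisations, pseudocounts, thresholds and leaving out each library.

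In each class the rule named the 5 members with the largest absolute log2 ratio in each direction among those with a base mean of at least 20 in the higher group, members with a base mean of at least 1000, and members with 0 reads in a group, 33 in all. Members and lists were chosen with earlier results of these data known. Gene names are those of the table, since 0 identifiers matched the reference table. R 4.3.3, Python 3.11.15, pandas 2.3.3 and scipy 1.17.1 were used.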

Additional observations from a re-analysis of the deposited data

How the results depend on the processing

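The share of higher genes among all 46 members, 50%, was 66.7% among the 21 with an absolute log2 ratio of at least 2, where 727 of 1119 genes of the table were higher. It was 38.5% among the 26 members with an adjusted p of at most 1e-10 in the authors' deposited table. The share of all genes of the table at that limit was not analysed here, so the 38.5% has no background beside it. Directions could not change when 1 library was left out, since the libraries of the groups do not overlap in the 41 recovered members. Of 28 recovered named members, 26 to 28 kept an absolute log2 change of at least 1 in the 6 runs without 1 library. Leaving out members matched only through a wider activity term, chosen after seeing the data, gave 47.5% higher and left 3 acyltransferases. The smaller flower lists were also chosen after seeing the data. TMM over the recovered genes moved the median log2 change by -0.43. With it 17 members were higher and 22 lower at an absolute log2 change of at least 1, against 19 and 22 with the authors' factors. TMM assumes that most genes are unchanged, while all genes of the table were called. The shift therefore cannot tell which scaling is right. With a pseudocount of 10 normalised reads, 25 of 26 recovered named members with reads in both groups kept an absolute log2 change of at least 1. No paired analysis was possible because library counts rebuilt from group means cannot be tied to the numbered replicates. Depth limits the members under 20 normalised reads, whose folds have wide counting intervals. The table holds called genes alone, so transferase genes that did not pass and the share of the family that differs were not analysed here.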
